A study of Rattus norvegicus with 36 samples.

Results

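The intercalated disc is the end-to-end contact between heart muscle cells, and 6 genes of its junctions were followed here: Gja1, Dsp, Pkp2, Jup, Cdh2 and Dsg2. They were chosen by name, with earlier results of these data known. All 6 are listed among the 12943 rat gene rows of the deposited table, and all 6 passed the filter on low values. Their levels were read in all 36 libraries. RNA came from iAM-1 cells, 1 line of conditionally immortalised atrial myocytes made from newborn Wistar rats. The D0 cells had been proliferating in 100 ng/ml doxycycline, D1, D2, D3 and D9 are days of differentiation without the drug, and D10, D11, D12 and D18 are days of dedifferentiation with 100 ng/ml given again. Each of the 9 days has 4 libraries, and every group carries the same doxycycline-controlled construct with the large T antigen, so there is no group without it. The labels do not tell whether the 4 libraries of a day are separate cultures. The p-values therefore cover only how much these libraries vary, and that variation may be technical.

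Heart muscle cells are joined by 3 kinds of contact. Gap junctions pass current from cell to cell, adherens junctions anchor the actin of the contractile fibrils, and desmosomes anchor the desmin intermediate filaments. Gja1 encodes connexin 43, the main gap junction channel protein of working heart muscle. Cdh2 encodes N-cadherin, the transmembrane cadherin of adherens junctions. Dsg2 encodes desmoglein 2, a desmosomal cadherin, and Dsp (desmoplakin), Pkp2 (plakophilin 2) and Jup (plakoglobin) encode proteins of the desmosomal plaque. Plakoglobin is also part of adherens junctions. In people, inherited defects of the desmosomal genes are known for arrhythmogenic cardiomyopathy.

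Promoter windows from RefSeq (build GRCr8, 250 bases before to 50 after the start) were at hand for 4 of the 6 genes, Gja1, Dsp, Jup and Dsg2. The stretches before the start of the Gja1 and Dsp genes are shown because these are the genes with the largest changes among the 6. Gja1 is on chromosome 20, plus strand, chr20:36302314-36302563, and Dsp on chromosome 17, minus strand, chr17:26877122-26877371. Each is written 5′ to 3′, with matches to the AP-1 motif (TGACTCA) and the SP1 motif (GGGCGG), on either strand, in capitals.
Gja1: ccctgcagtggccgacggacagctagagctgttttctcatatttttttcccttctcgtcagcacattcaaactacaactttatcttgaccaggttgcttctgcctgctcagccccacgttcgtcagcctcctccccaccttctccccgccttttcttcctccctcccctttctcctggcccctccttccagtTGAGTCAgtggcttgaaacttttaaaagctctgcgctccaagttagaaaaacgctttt
Dsp: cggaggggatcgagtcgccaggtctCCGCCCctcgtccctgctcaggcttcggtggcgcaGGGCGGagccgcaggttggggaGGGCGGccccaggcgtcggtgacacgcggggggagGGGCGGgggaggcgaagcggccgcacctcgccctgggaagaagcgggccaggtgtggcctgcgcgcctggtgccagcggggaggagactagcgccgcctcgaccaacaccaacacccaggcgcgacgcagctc
The Gja1 window holds 1 AP-1 match, which begins 58 bases before the start, and 0 SP1 matches. The Dsp window holds 4 SP1 matches and 0 AP-1 matches. Of all 33469 windows of this length in the table, 4.6% hold the AP-1 motif and 33.1% the SP1 motif. The SP1 motif was found 2 times in the Jup window and 4 times in the Dsg2 window. The GC content was 50.3% for Gja1 and 75.0% for Dsp, beside a median of 51.7% over all windows. A match is a description of letters only, and none was tested as a binding site.

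The libraries held 29.7 to 86.2 M recovered reads, and each of the 6 genes had between 3761 and 73589 reads in every library. The T antigen RNA, which checks the labels, was at 2732 to 3098 CPM (read counts scaled to library size) at D0, 27.6 to 33.9 at D9 and 4578 to 5474 at D18. All 7 listed cardiomyocyte markers, among them Actn2, Tnnt2 and Myh6, were called higher at D9 than at D0. Their summed level ran from 11479 to 12628 CPM at D0, from 79487 to 87167 at D9 and from 17939 to 22370 at D18. Summed fibroblast markers (6 of 10 listed) were at 293 to 315 CPM at D0 and 18.9 to 23.8 at D9. Summed epithelial and mesothelial markers (5 of 11 listed) were at 76.7 to 81.7 CPM at D0, 13.5 to 16.3 at D9 and 21.1 to 23.9 at D18. Defining genes such as Pecam1, Cdh5, Cdh1 and Dcn are not listed and were not analysed here. In bulk RNA, fewer cells of a type and less RNA per cell cannot be told apart, and the part of these markers in the results below was not tested. Some libraries stood apart. The first library of D10 lay at a root mean square distance of log2 0.463 from the others of its day, where the other 3 lay at 0.189 to 0.208. Replicate 2 of D9 lay at 0.317, where the others of that day lay at 0.181 to 0.192. The 4 libraries of D12 lay at 0.5 to 0.658 from each other, and those of D11 at 0.33 to 0.416. For this reason the D10 to D12 values of Gja1 and Dsp are given library by library. Without all D10, D11 and D12 libraries, the calls between D0, D9 and D18 below stayed the same for the 6 genes, except that Cdh2 was then also called at D9 against D0 (log2 0.13, adjusted p = 0.00915) and at D18 against D9 (log2 -0.11, adjusted p = 0.0396).

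Gja1 rose 6.14-fold from D0 to D9 and was still high at D18. At D0 its 4 libraries read 132, 142, 146 and 149 CPM. At D9 they read 899.5, 766, 895 and 944 CPM, so no library of either day came near the other. The log2 change was 2.62 (SE 0.09, adjusted p = 1.4e-23 by limma on log2(CPM + 0.5) over 12487 genes). At D18 the values were 828, 786, 754 and 916 CPM, inside the spread of D9 at all but the lowest library. The change from D9 to D18 was log2 -0.09 (SE 0.09, 95% interval -0.27 to 0.08, adjusted p = 0.344). It turned positive in the deposited TPM table (0.27, adjusted p = 0.00662) and under quantile normalization (0.49, adjusted p = 6.8e-06). With a weight for each library, the change stayed negative and was called. Relative to the median of all genes, it stood at log2 -0.075 in the TPM table and 0.62 under quantile normalization. Against D0, D18 stood 5.76-fold higher (log2 2.53, SE 0.09, adjusted p = 5.6e-21). That p-value ranked 1 among the 12487 genes in this comparison, while the size of the rise ranked 44.

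The rise of Gja1 was early. The D1 libraries read 221, 232, 233 and 230.03 CPM, all above D0 (log2 0.69, SE 0.09, adjusted p = 6.4e-07). The D2 libraries read 724, 688, 716 and 756 CPM (log2 1.65 against D1, SE 0.09, adjusted p = 1.4e-15). At D3 they read 830.3, 843, 834 and 856 CPM, all above those of D2 without overlap, but the step was not called (log2 0.22, adjusted p = 0.0865). By D2, 89.4% of the whole log2 change from D0 to D9 had been reached, and by D3 97.9%.

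After doxycycline was given again, Gja1 was lowest at D12 and then rose. At D10 the values were 1147, 946, 976 and 919.9 CPM, which overlap those of D9 (log2 0.19, adjusted p = 0.258). At D11 they were 1019, 709, 869 and 740.3 CPM (log2 -0.27 against D10, SE 0.09, adjusted p = 0.0201). This step was not called without replicate 1 of D10 (adjusted p = 0.0898), without replicate 2 or 4 of D11 (adjusted p = 0.107 and 0.0848), under quantile normalization (log2 -0.13) or with only the days compared. Replicates 1 and 3 of D11 were the high ones. The D12 libraries read 472, 477, 535 and 498 CPM, below every library of D11 (log2 -0.74, SE 0.09, adjusted p = 3.3e-08). From D12 to D18 Gja1 rose again by log2 0.73 (SE 0.09, adjusted p = 3.7e-08), with no overlap between the days. The D12 libraries remained above every D1 library, the highest of which read 233 CPM.

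**Figure D1:**
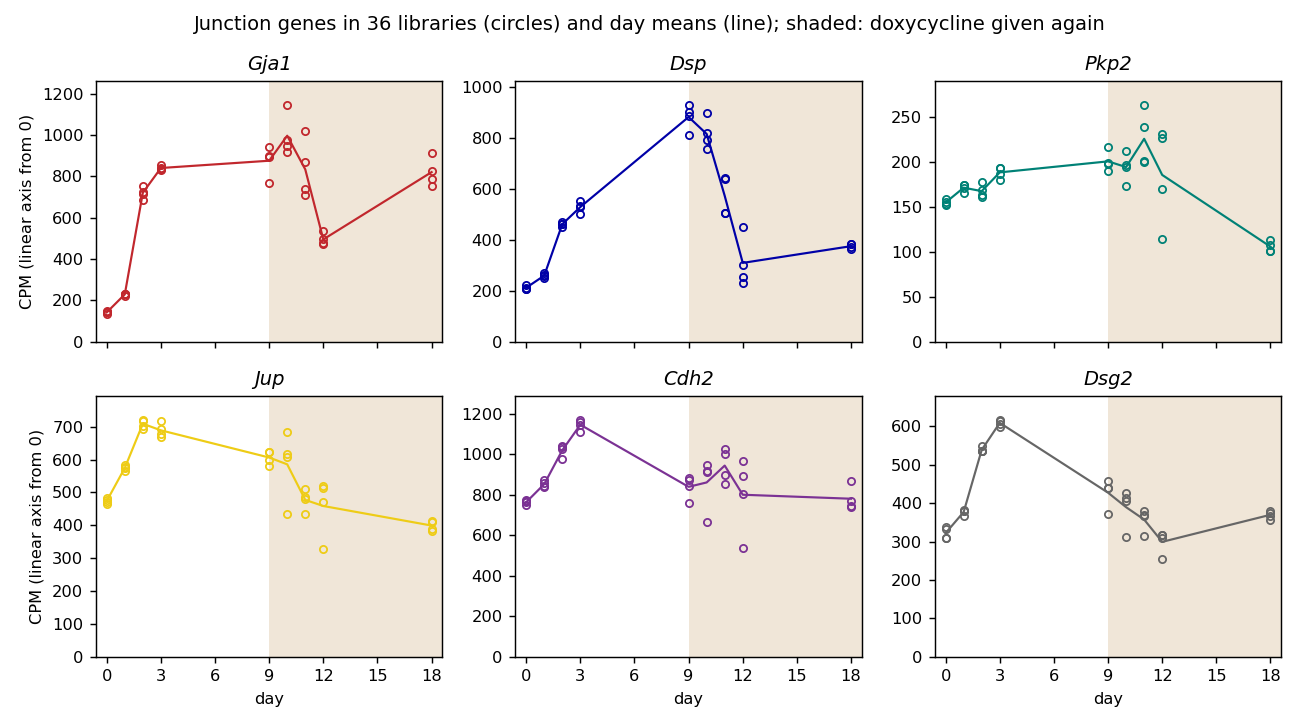
CPM of the 6 junction genes (y axis, linear from 0) against day (x axis) in each of the 36 libraries (circles), with day means as lines and the days from D9 on, when doxycycline was given again, shaded. Gja1 climbs from 132 to 149 CPM at D0 to 688 to 756 at D2, and Dsp peaks at 813 to 932 CPM at D9.

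Dsp, which ties the desmosomal plaque to desmin, rose nearly as far as Gja1 by D9 but took longer and then fell. At D0 the libraries read 206, 224, 209 and 210 CPM, and at D9 904, 813, 886 and 932 CPM. The D9 values are more than 3 times the highest D0 value, and the log2 change was 2.05 (4.15-fold, SE 0.11, adjusted p = 3.5e-17). At D18 the libraries read 371, 383, 363 and 386 CPM, below every D9 library and above every D0 library. The fall from D9 was log2 -1.23 (SE 0.11, adjusted p = 2.2e-11), and D18 remained above D0 by log2 0.82 (SE 0.11, adjusted p = 3.2e-07). At D3 Dsp stood at 552, 534, 502 and 531 CPM, which is 64.1% of its log2 change to D9. It rose by log2 0.74 from D3 to D9 (SE 0.11, adjusted p = 3.2e-06), a step in which Gja1 was not called (log2 0.06, adjusted p = 0.634).

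The return of Dsp began a day before its lowest level. The D10 values of 899, 819, 794 and 756 CPM overlap those of D9. At D11 the libraries read 506, 642, 507 and 640 CPM (log2 -0.52 against D10, SE 0.11, adjusted p = 7.7e-04). Replicates 1 and 3 were the low ones here, where they were the high ones for Gja1. At D12 they read 452, 301, 231 and 256 CPM (log2 -0.93 against D11, SE 0.11, adjusted p = 8.9e-08), with the first library far above the other 3. The change from D12 to D18 was log2 0.33 (SE 0.11, adjusted p = 0.0174), although the D12 and D18 values overlap. It was not called without replicate 3 of D12 (log2 0.20, adjusted p = 0.132), without replicate 4 of D12 (log2 0.25, adjusted p = 0.0835) or with only the days compared (adjusted p = 0.209).

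The other desmosomal plaque genes, Pkp2 and Jup, rose 1.29-fold and 1.28-fold by D9 and were below D0 at D18. Pkp2 read 153, 158, 152 and 155 CPM at D0 and 189, 216, 198 and 198 CPM at D9 (log2 0.37, SE 0.12, adjusted p = 0.00792). It read 101, 107, 101 and 113 CPM at D18, below every library of D0 and of D9. The fall from D9 was log2 -0.92 (SE 0.12, adjusted p = 6.7e-08) and the difference from D0 was log2 -0.55 (SE 0.12, adjusted p = 3.6e-04). Most of that fall came after D12, where the libraries still read 114, 170.2, 231 and 226 CPM (log2 -0.76 from D12 to D18, SE 0.12, adjusted p = 7.3e-06). At D12 against D11 the change (log2 -0.33, SE 0.12, adjusted p = 0.0328) was log2 -0.11 without replicate 1 of D12 (adjusted p = 0.304) and log2 0.11 with a weight for each library. It was not called by edgeR (adjusted p = 0.0634) or DESeq2 (adjusted p = 0.0777), nor without replicate 1 or 3 of D11 or replicate 2 of D12.

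Jup read 484, 465, 477 and 470 CPM at D0 and rose to a peak of 694 to 721 CPM at D2. At D9 it read 622, 580, 623 and 600 CPM (log2 0.35 against D0, SE 0.10, adjusted p = 0.00297). At D18 it read 384, 411, 414 and 388 CPM, below every D0 library. Its fall from D9 was log2 -0.60 (SE 0.10, adjusted p = 5.8e-06), and it was not called in the TPM table (log2 -0.24, adjusted p = 0.0719) or under quantile normalization (log2 -0.25, adjusted p = 0.051). The difference between D18 and D0 was small (log2 -0.25, SE 0.10, adjusted p = 0.0442) and was not called when any 1 library of D0 or D18 was left out (adjusted p = 0.0526 to 0.0951).

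The cadherin genes peaked at D3 and came down before doxycycline returned. Dsg2 rose from 309, 333, 308 and 338 CPM at D0 to 617, 607, 599 and 613 CPM at D3. At D9 it read 439, 372, 440 and 458 CPM, below every D3 library (log2 -0.52, SE 0.08, adjusted p = 3.5e-06) and above every D0 library (log2 0.40, SE 0.08, adjusted p = 3.6e-05). At D18 it read 375, 367, 357 and 380 CPM. The change from D9 to D18 was log2 -0.20 (SE 0.08, adjusted p = 0.0247), but positive in the TPM table (0.16, adjusted p = 0.177) and under quantile normalization (0.14, adjusted p = 0.153). Relative to the median of all genes, this change stood at log2 -0.19 in the TPM table and 0.27 under quantile normalization. Without replicate 1, 3 or 4 of D9 or replicate 3 of D18 it was not called (adjusted p = 0.058 to 0.0854). D18 against D0 was log2 0.20 (SE 0.08, adjusted p = 0.0349), and not called in the TPM table (adjusted p = 0.066) or without replicate 1 or 3 of D0 or replicate 1, 2 or 4 of D18 (adjusted p = 0.0539 to 0.0896).

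Cdh2 read 763, 775, 748 and 769 CPM at D0 and 1158, 1147, 1111 and 1171 CPM at D3. By D9 it was back at 845, 759, 874 and 881 CPM, which overlap D0. The step from D3 to D9 was log2 -0.45 (SE 0.11, adjusted p = 0.00153). None of the comparisons between D0, D9 and D18 was called for Cdh2: log2 0.13 at D9 against D0 (SE 0.11, 95% interval -0.10 to 0.36, adjusted p = 0.287), -0.11 at D18 against D9 (SE 0.11, adjusted p = 0.421) and 0.03 at D18 against D0 (SE 0.11, 95% interval -0.20 to 0.26, adjusted p = 0.843). When only the libraries of D0 and D9 entered the fit, the change between them was called (adjusted p = 0.0302). With a weight for each library, Cdh2 was called higher at D9 against D0 and lower at D18 against D9. The direction depended on the scaling: D9 against D0 was log2 -0.20 in the TPM table and -0.16 under quantile normalization, and D18 against D9 was log2 0.25 (not called) and 0.48 (called, adjusted p = 5.0e-04). Relative to the median of all genes, in the same order, D9 against D0 stood at log2 0.145 and -0.25. D18 against D9 then stood at log2 -0.087 and 0.61.

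Counted together, 5 of the 6 genes were called higher at D9 than at D0, where 71.4% of all 12487 genes were called in either direction, 34.4% as higher and 37% as lower. At D18 against D9, 4 of 6 were called, all lower, beside 66.1% of all genes in either direction, 33.6% higher and 32.5% lower. At D18 against D0, 3 were called higher and 2 lower, beside 52% of all genes in either direction, 28.7% higher and 23.2% lower. These comparisons share the D0, D9 or D18 libraries. With so large a share of all genes called, the counts alone say little about the 6. In size, 98.8% of genes had a lower log2 change than Gja1 at D9 against D0, and 97.6% a lower one than Dsp. At D18 against D0 these shares were 99.6% for Gja1 and 94.2% for Dsp.

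**Figure D2:**
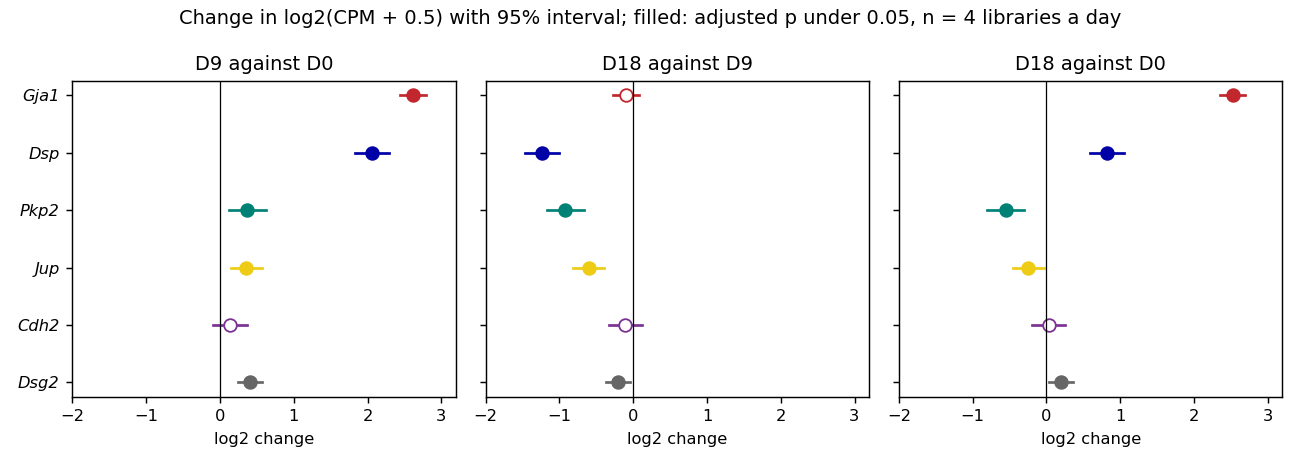
Log2 change of the 6 junction genes (x axis, in log2(CPM + 0.5)) in 3 comparisons between days, each with its 95% interval from limma. Filled points passed an adjusted p of 0.05, and Gja1 lies near 2.6 at D9 against D0 and near 2.5 at D18 against D0, with a change of -0.09 between D9 and D18.

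The way libraries are scaled matters for the small changes. In the TPM table (values scaled to gene length and library size), the median log2 change of all genes was -0.35 at D9 against D0 and 0.34 at D18 against D9, where it was -0.024 and -0.001 in the CPM table, and under quantile normalization it was -0.13 at D18 against D9. Of the genes called at D9 against D0, 48.2% were higher in the CPM table and 27.1% in the TPM table. At D18 against D9 these shares were 50.8% and 77%, and 40.2% under quantile normalization. At D9 against D0, Pkp2 (log2 0.04), Jup (0.02) and Dsg2 (0.07) were not called in the TPM table, nor under quantile normalization. Relative to the median of all genes in the TPM table, they stood at log2 0.38, 0.37 and 0.42, and relative to it under quantile normalization at log2 0.14, 0.042 and 0.089. Gja1 (log2 2.28) and Dsp (log2 1.71) were called higher there as well.

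The ratio of 2 genes within a library does not change with a scaling factor per library, so the ratios of all 15 pairs were tested by a two-sided exact permutation test of 4 libraries against 4, adjusted over the pairs. The smallest p this allows is 0.0286. After adjustment over 15 pairs, a pair at this floor passes only if many others reach it too. The pairs share 6 genes, so their calls are not independent. From D0 to D9, 12 of the 15 ratios changed (adjusted p = 0.0357). The log2 ratio of Gja1 to Cdh2 went from -2.42 ± 0.08 (SD, n = 4) to 0.06 ± 0.04, a 5.59-fold shift. Gja1 gained 1.48-fold on Dsp, and Dsp gained 3.21-fold on Pkp2 and 3.14-fold on Dsg2. The 3 ratios that were not called were those among Pkp2, Jup and Dsg2, with log2 differences of 0.02, -0.03 and -0.05 (exact permutation, adjusted p = 0.857, 0.857 and 0.725).

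From D9 to D18, 13 of the 15 ratios changed (exact permutation, adjusted p = 0.033). Dsp fell against each of the other 5, and the ratio of Gja1 to Dsp grew 2.20-fold. Pkp2 fell against Gja1, Jup, Cdh2 and Dsg2, but gained on Dsp (the log2 ratio of Dsp to Pkp2 changed by -0.31). The ratio of Gja1 to Cdh2 was 0.07 ± 0.04 at D18 on the log2 scale, a difference of 0.01 from D9 (exact permutation, adjusted p = 0.83). The ratio of Cdh2 to Dsg2 was the other that was not called (log2 0.10, adjusted p = 0.0612). Between D18 and D0, 14 of the 15 differed (exact permutation, adjusted p = 0.0306), the widest being that of Gja1 to Pkp2, which was 8.43-fold higher at D18.

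**Figure D3:**
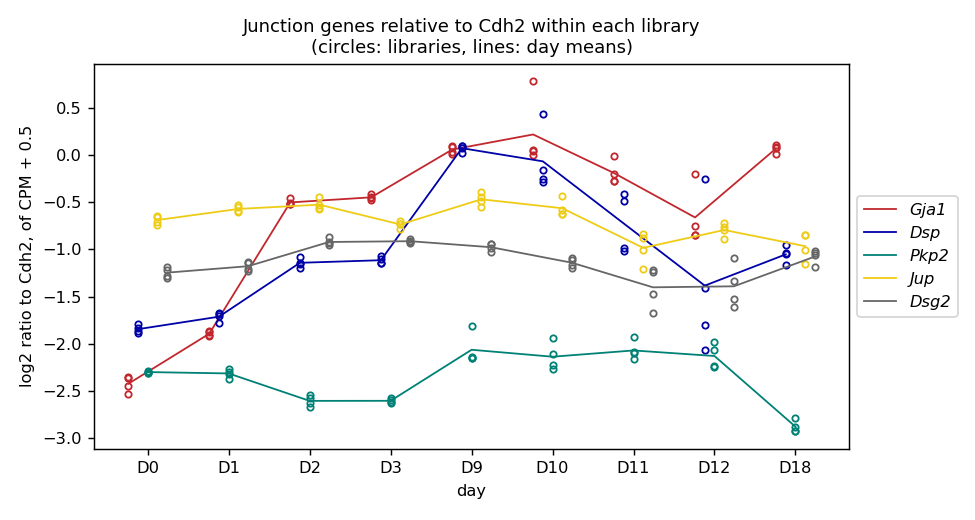
Log2 ratio of 5 junction genes to Cdh2 within each library (y axis) by day (x axis), with libraries as circles and day means as lines. Gja1 runs from a mean of -2.42 at D0 to 0.06 at D9 and 0.07 at D18, while Dsp reaches 0.07 at D9 and is at -1.05 at D18.

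Levels of different genes were compared in TPM, which accounts for length. At D0 the order was Cdh2 (422 ± 9.39 TPM), Jup (256 ± 3.63), Pkp2 (157 ± 3.71), Dsg2 (137 ± 7.53), Gja1 (109 ± 5.99) and Dsp (53.1 ± 2.17; SD, n = 4), with no overlap between neighbours. At D9 Gja1 came first (532 ± 62.8 TPM), then Cdh2 (369 ± 36.6) and Jup (259.7 ± 17.1). Dsp (176 ± 15.5), Pkp2 (161 ± 4.75) and Dsg2 (144 ± 17.4) followed, and neighbours among these 3 overlapped. At D18 the order was Gja1 (639 ± 66.5 TPM), Cdh2 (439 ± 40.1), Jup (219 ± 3.95), Dsg2 (160.02 ± 7.64), Pkp2 (109 ± 7.51) and Dsp (95.6 ± 4.16), again with no overlap. Of the summed TPM of the 6 genes, Gja1 made up 9.57% ± 0.46 at D0, 27.4% ± 0.49 at D2, 32.3% ± 1.09 at D9 and 38.4% ± 1.24 at D18. Dsp made up 4.68% ± 0.14 at D0, 10.7% ± 0.14 at D9 and 5.77% ± 0.23 at D18.

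**Figure D4:**
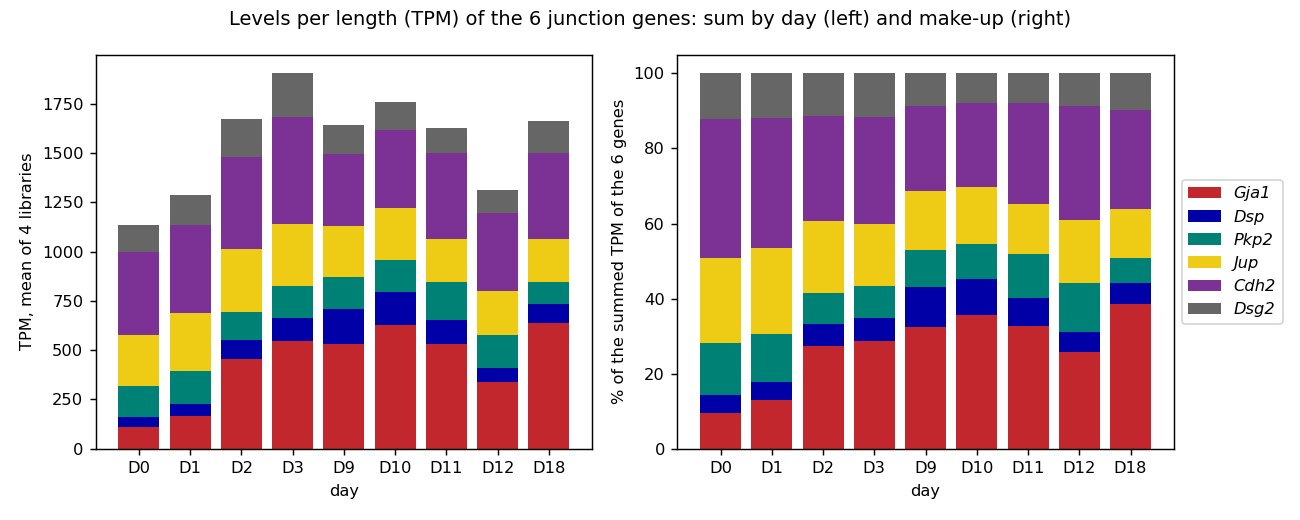
Mean TPM of the 6 junction genes by day, stacked (left, y axis in TPM), and the same as a share of their sum (right, y axis in %). The sum was 1133.6 TPM at D0, 1641.9 at D9 and 1661.9 at D18, and the share of Gja1 grows from 9.57% to 38.4%.

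Day by day, the genes called differed. At D1 against D0, Gja1 alone was called in the fit of all days, beside 12.3% of all genes (7.91% higher, 4.36% lower). In CPM the D1 libraries of all 6 genes lay above those of D0. In TPM the days overlapped for Pkp2, at 153 to 162 at D0 and 158 to 171 at D1. How many of all genes had such separate days was not counted. With only the D0 and D1 libraries in the fit, all 6 were called, but the share of all genes called in that fit was not counted. At D2 against D1, Gja1, Dsp, Jup and Dsg2 rose, beside 41.5% of genes called (21.6% higher, 20% lower), and Jup was not called in the TPM table (log2 0.11) or under quantile normalization (log2 0.080). At D3 against D2 none was called by limma, beside 12.6% of genes (2.92% higher, 9.68% lower). The unadjusted limma p was under 0.05 for Gja1 and Dsg2, 2 of the 6. How many of all genes passed that unadjusted threshold was not counted. With only the D2 and D3 libraries in the fit, 5 were called, again with no count over all genes. At D9 against D3, Dsp rose and Cdh2 and Dsg2 fell, beside 43.4% of genes (18.4% higher, 25% lower).

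At D10 against D9 none of the 6 was called, beside 3.63% of all genes (2.36% higher, 1.27% lower). The unadjusted limma p was under 0.05 for 1, Gja1, and the share of all genes at that threshold was not counted. The first library of D10 had the highest Gja1 and Dsp of its day (1147 and 899 CPM) and the lowest Pkp2, Jup, Cdh2 and Dsg2 (173, 433, 666 and 312 CPM). It also had the highest sum of cardiomyocyte markers (113296 CPM, where the other 3 had 68687 to 74512) and the lowest of smooth muscle markers (7995 CPM, where the others had 13693 to 14553). At D11 against D10, Gja1, Dsp and Jup fell, beside 25.5% of genes (15.7% higher, 9.84% lower). The call of Jup (adjusted p = 0.0464) was lost in 29 of the 36 fits that left out a library and in 6 other settings, and that of Dsp was lost without replicates 1 and 3 of D11 (adjusted p = 0.0607). A single gene was called (1 of 6) without replicates 1 and 3 of D11, and also without replicate 2 or replicate 4 alone. Summed cardiomyocyte markers were at 75060 and 90367 CPM in replicates 1 and 3 of D11, and at 60162 and 61341 in replicates 2 and 4. T antigen was at 1705 and 2035 CPM in replicates 1 and 3, and at 2361 and 2420 in replicates 2 and 4. At D12 against D11, Gja1, Dsp, Pkp2 and Dsg2 fell, beside 40% of genes called (18.7% higher, 21.3% lower). The first D12 library had the lowest Pkp2, Jup, Cdh2 and Dsg2 (114, 327, 540 and 254 CPM), the highest Dsp and the most T antigen (3830 CPM, where the others had 1637 to 2432). Like the first D10 library, it had the highest sum of cardiomyocyte markers of its day (59735 CPM, where the others had 34482 to 52088). Its sum of smooth muscle markers was the lowest (5319 CPM, where the others had 7566 to 9410). Without this library, 2 of 6 genes were called, and Dsg2 was not (log2 -0.18, adjusted p = 0.0554). The part of these library differences in the results was not tested. At D18 against D12, Gja1, Dsp and Dsg2 rose and Pkp2 fell, beside 48.9% of genes (25.4% higher, 23.5% lower).

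The first 3 days of each phase were set against each other by adding the log2 changes of D3 against D0 and D12 against D9. This sum is 0 where the changes are equal in size and opposite. It does not measure a return to D0, because it leaves out the change from D3 to D9. That change was log2 -0.45 for Cdh2, -0.52 for Dsg2 and 0.74 for Dsp. At D12 the libraries of Cdh2 and Dsg2 overlapped those of D0, while those of Dsp lay above D0. For Gja1 the sum was log2 1.74 (SE 0.12, adjusted p = 2.8e-12), made of a rise of log2 2.56 and a fall of log2 -0.82. Cdh2 (log2 0.49, SE 0.16, adjusted p = 0.0249) and Dsg2 (log2 0.41, SE 0.11, adjusted p = 0.00865) also had sums above 0. That of Cdh2 did not pass without replicate 2 of D9 (adjusted p = 0.056) or replicate 3 or 4 of D12 (adjusted p = 0.0747 and 0.0584), nor with median-of-ratios scaling, quantile normalization, the TPM table or only the days compared. That of Dsg2 did not pass in the TPM table (adjusted p = 0.0814). Of all genes, 23.4% had a sum that passed the test, 14.4% above 0 and 9.03% below. Without replicate 1 of D12, 5 of the 6 genes passed instead of 3. For Dsp the rise of log2 1.32 was met by a fall of log2 -1.56, and the sum did not pass (log2 -0.24, 95% interval -0.57 to 0.09, adjusted p = 0.288). Without replicate 1 of D12 it passed, at log2 -0.44 (adjusted p = 0.00297).

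Of the 4 lists of other junction genes, 39 rows were tested. At D9 against D0, 27 were called higher, 5 lower and 7 neither, with a median log2 change of 0.57 beside -0.02 over all genes. Of all genes, 34.4% were called higher and 37% lower, shares that also stand beside each list count at D9 below. In the TPM table, where the median of all genes is lower, the split was 18 higher and 11 lower of 38. Of 4 other desmosome genes tested, 3 fell: Pkp1 (log2 -2.27, SE 0.32), Ppl (log2 -1.56, SE 0.39) and Dsc2 (log2 -1.45, SE 0.11), while Pkp4 rose (log2 1.18, SE 0.10). Dsc2, the desmosomal cadherin desmocollin 2, went from 86.4 ± 3.69 CPM at D0 to 31.4 ± 1.31 at D9 and 54.9 ± 6.51 at D18. It rose from D9 to D18 (log2 0.79, SE 0.11, adjusted p = 1.5e-07), a step in which Dsp, Pkp2 and Jup fell.

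Of 12 rows of adherens junction and catenin genes, 8 rose by D9, 1 fell and 3 were not called, while by TPM there were 4 higher, 4 lower and 4 not called. Ctnna3, the alpha-T-catenin of heart muscle, is listed in 2 rows, which rose by log2 1.91 (SE 0.12) and 1.41 (SE 0.10). Ctnna3 fell again by D18 (log2 -1.32 and -1.10). Afdn rose by log2 1.24 (SE 0.15) and Nectin2 fell by 1.30 on the log2 scale (SE 0.07). The catenin gene Ctnnb1, which encodes beta-catenin, the close relative of plakoglobin, had day means of 393 to 433 CPM over all 9 days. It was not called in the 3 comparisons (log2 -0.05, 0.10 and 0.05, adjusted p = 0.468, 0.115 and 0.432), but in the TPM table it was lower at D9 than at D0 (log2 -0.38, adjusted p = 3.5e-05) and higher at D18 than at D9 (log2 0.46, adjusted p = 2.5e-06). The medians of all genes in the TPM table were close to these, at log2 -0.35 and 0.34.

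Of 6 connexin, pannexin and zonula occludens genes, 4 rose by D9, among them Gjc1 (log2 0.86, SE 0.12), Gja3 (log2 0.83, SE 0.13) and Tjp1 (log2 0.43, SE 0.07). By TPM, 3 of these 6 were higher, 1 lower and 2 not called. Tjp1, which encodes ZO-1, a protein that binds connexin 43, was not called in the TPM table (log2 0.10, adjusted p = 0.328) or under quantile normalization (log2 0.18, adjusted p = 0.0557). Gjc1, which encodes connexin 45, read 29.6 ± 1.11 CPM at D0, 21.7 ± 1.42 at D3, 54.5 ± 8.05 at D9 and 72.1 ± 1.13 at D18. Its D3 level lay below that of D0, where Gja1 had reached 97.9% of its log2 change. Gjc1 and Gja3 stood above D0 at D18, by log2 1.27 (SE 0.12, adjusted p = 1.7e-10) and 1.44 (SE 0.13, adjusted p = 8.0e-11). Of 17 other intercalated disc genes, 14 rose by D9, with Bves at log2 1.96 (SE 0.11), Ldb3 at 1.81 (SE 0.13) and Fhl2 at 1.40 (SE 0.08). These 3 fell again by D18 (log2 -0.71, -1.13 and -0.85). By TPM, 16 of the other intercalated disc genes were tested at D9 against D0, with 10 higher, 3 lower and 3 not called.

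**Figure D5:**
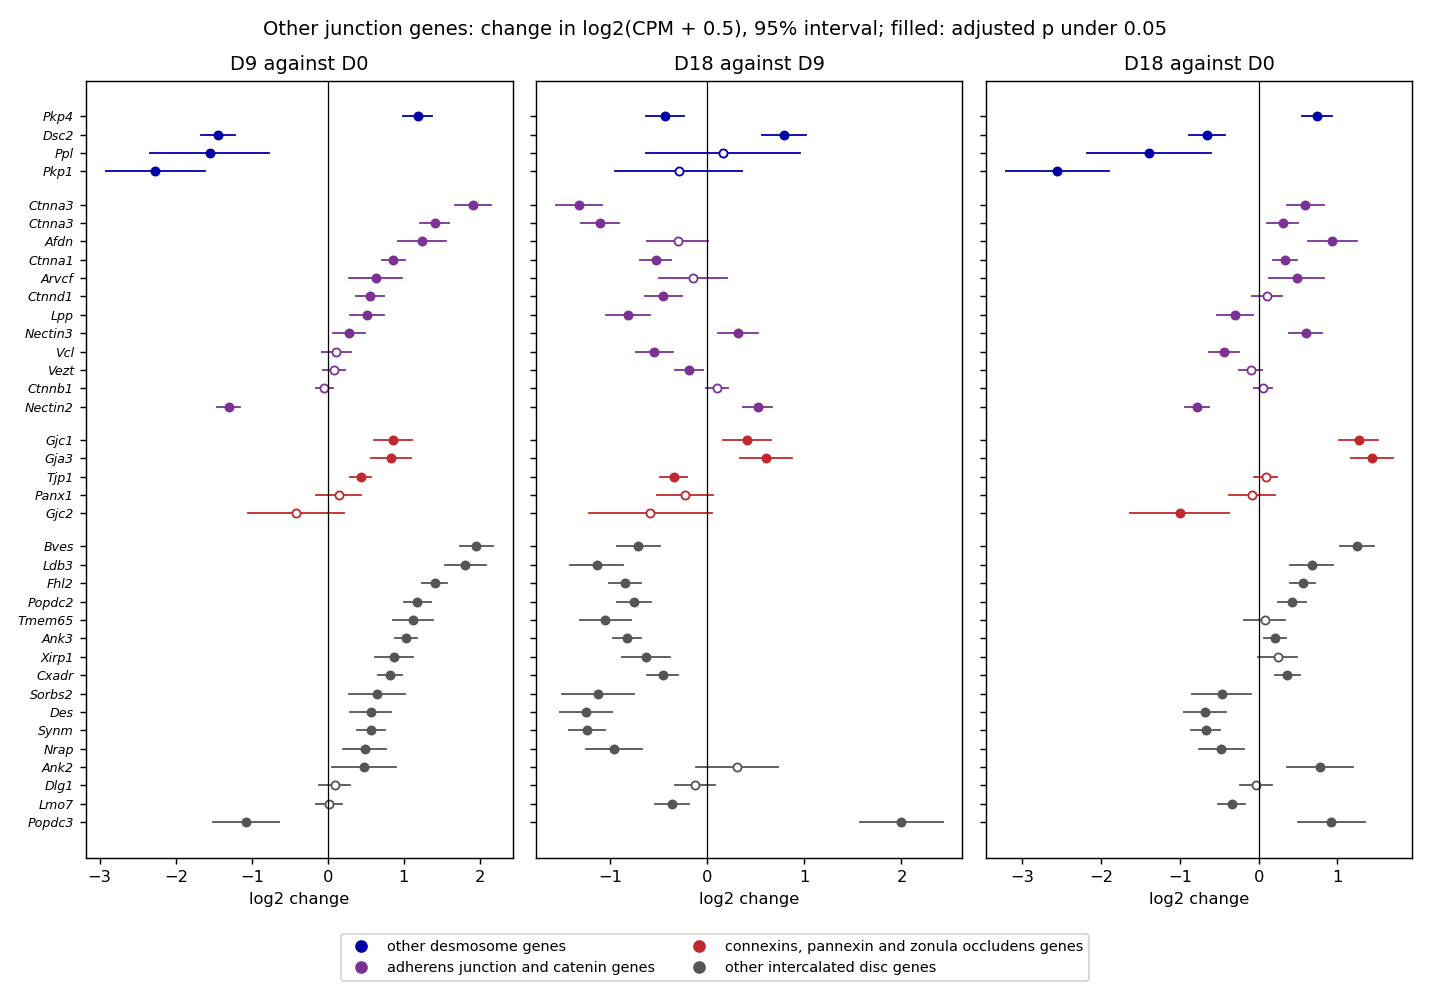
Log2 change (x axis, in log2(CPM + 0.5), with 95% interval) of 37 of the 39 other junction rows in 4 lists, in 3 comparisons; filled points passed an adjusted p of 0.05. Of the rows drawn, 25 were called higher at D9 than at D0, beside 34.4% of all genes. At D18 against D9, 22 were called lower, beside 32.5% of all genes.

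At D18 against D9, 6 of the 39 other junction rows were higher, 24 lower and 9 not called, with a median of log2 -0.45. Of all genes, 33.6% were called higher and 32.5% lower. In the TPM table the split was 8 higher and 15 lower of 38. At D18 against D0, 19 were higher, 12 lower and 8 not called, beside 28.7% of all genes called higher and 23.2% lower.

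Across the 36 libraries, the 6 genes did not move as a block. These correlations of log2(CPM + 0.5) are descriptions: the libraries of a day are alike, and all points share the time course. Gja1 and Dsp had a Pearson r of 0.825, Jup and Dsg2 0.821, Cdh2 and Dsg2 0.795 and Jup and Cdh2 0.759. Gja1 had an r of 0.183 with Pkp2 and 0.192 with Jup. Of all genes tested other than the 6, those with the highest r to Gja1 were Eya1 (0.956), Nebl (0.956) and Btg1 (0.938), and those nearest to Dsp were Adcy5 (0.978), Znrf2 (0.972) and Epas1 (0.97). Nearest to Pkp2 were Uba1 (0.928), Fhl1 (0.919) and Hspa4 (0.906), and to Jup Tanc1 (0.964), Csf1 (0.948) and Serinc3 (0.925). Skil (0.889), Tbx18 (0.869) and Spred1 (0.869) were nearest to Cdh2, and Vangl1 (0.943), Chd3 (0.931) and Rbm5 (0.93) to Dsg2.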

How the data were processed

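Poly(A) RNA of iAM-1 cells was sequenced with a directional kit as 150-bp read pairs, per the labels' protocols. The submitters' processing notes name the build Rnor_6.0 and edgeR 3.26.8; the sources used here name no aligner and no counting tool. The authors deposited a table of CPM and a table of TPM. The CPM values are a signal, counts divided by an effective library size (columns sum to 868992 to 1136457), though the plan had taken them for plain CPM. The deposited CPM signal gave whole reads: within 0.1 read, 100% of values up to 20 reads came out whole in every library, 1 read was worth 0.0105 to 0.0361 CPM, and libraries held 29.7 to 86.2 M reads (median 36.9 M). Rows in the deposited table have at least 1 read in every library. The deposited TPM table served for levels between genes.

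Tests were made on log2(CPM + 0.5) with lmFit and eBayes (trend on) of limma 3.58.1 under R 4.3.3, a scale that understates changes of low genes. A gene entered when 4 or more libraries had 1 CPM or more (12487 rat genes and 5 construct rows). All 36 libraries were in 1 fit with a mean per day (27 residual degrees of freedom). Adjusted p-values are Benjamini-Hochberg values over all genes within a comparison, called at 0.05, and ± marks the SD of a day's 4 libraries. On the recovered reads, the count test with edgeR 4.0.16 called 8920 genes at D9 against D0 and DESeq2 1.42.0 called 8957, where limma called 8917. Libraries were given as replicates 1 to 4 by their labels, in which order values are printed; 1 D1 column carries a label that matches no D1 sample exactly and is printed last, as D1 without a number. No 2 libraries of a day were copies (lowest mean chi-square per gene 3.84). Columns left without a day numbered 0.

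The 6 genes and all lists were chosen with earlier results of these data known. Of each junction list, up to 4 genes with the largest change among those called at D9 against D0 are named with values (2 that the rule names are not reported here), and Ctnnb1 was added after its values were seen. The 3 genes with the highest Pearson r to each of the 6 are named. Alternatives (scaling, pseudocount, filter, weights, replicate block, count tests, each library left out) are given below. Summed levels of the other marker lists at D0 and D9 were 16.4 to 21.8 and 248.5 to 287 CPM (endothelial, 2 of 7 listed), 9359 to 9704 and 18760 to 22114 (smooth muscle, 5 of 5), 5.1 to 6.39 and 0.65 to 1.04 (macrophage, 2 of 5), 5.44 to 6.2 and 4.53 to 5.35 (Schwann cell and neuron, 2 of 5) and 169 to 184 and 20.4 to 27.2 (skeletal muscle, 3 of 5).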

Additional observations from a re-analysis of the deposited data

Results flagged for a closer look

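In 3 of the 54 groups of 4 libraries (6 genes on 9 days), 1 library lay far from the other 3, with a gap of 0.876 to 0.923 of the whole range. Chance gives about 5% of groups. Cdh2 in the first D10 library read 666 CPM, where the others read 913 to 948. Dsg2 in the first D12 library read 254 CPM, where the others read 310 to 317. Both libraries also had the lowest Pkp2 and Jup of their day. Dsg2 in the fourth D2 library read 548 CPM against 535 to 536, a gap that is wide only because the other 3 nearly coincide.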

How the results depend on the processing

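Over 72 results of the 6 genes, 3606 values were recomputed under the alternatives; 3398 kept their direction and side of the threshold, 99 lost the call, 67 gained it and 42 changed sign, 35 of these with neither value called. Gja1 and Dsp kept direction and call under every alternative at D9 against D0 (log2 2.28 to 2.68 and 1.71 to 2.09) and at D18 against D0. The values that changed sign follow, on the log2 scale. Under quantile normalization they were Cdh2 at D9 against D0 (-0.16), Gja1 (0.49), Cdh2 (0.48) and Dsg2 (0.14) at D18 against D9, Jup at D12 against D11 (0.033) and Cdh2 at D18 against D12 (0.28). In the TPM table they were Cdh2 at D9 against D0 (-0.20), Gja1 (0.27), Cdh2 (0.25) and Dsg2 (0.16) at D18 against D9, Gja1 (-0.051) and Pkp2 (-0.016) at D9 against D3, Pkp2 at D10 against D9 (0.011), Jup at D12 against D11 (0.021), and Jup (0.003) and Cdh2 (0.17) at D18 against D12. With a weight per library they were Cdh2 at D18 against D0 (-0.015), Pkp2 (0.013) and Jup (0.021) at D10 against D9, Cdh2 at D11 against D10 (-0.047), and Pkp2 (0.11), Jup (0.076) and Cdh2 (0.039) at D12 against D11. Without the farthest library of D10 and of D12 they were Pkp2 (0.005) and Jup (0.069) at D10 against D9 and Jup at D12 against D11 (0.076), and with median-of-ratios scaling Cdh2 at D18 against D12 (0.000). With a library left out, Cdh2 ran from -0.022 to 0.053 at D18 against D0, from -0.025 to 0.144 at D10 against D9 and from -0.183 to 0.096 at D18 against D12. Jup then ran from -0.15 to 0.069 at D10 against D9 and from -0.148 to 0.076 at D12 against D11, and Pkp2 from -0.092 to 0.005 at D10 against D9 and from -0.009 to 0.331 in the sum of the first days of each phase. The number of the 6 genes called changed as follows. At D9 against D0 it was 2 under quantile normalization and 2 in the TPM table, against 5. At D18 against D0 it was 3 in the TPM table, and 3 to 5 with a library left out. At D1 against D0 it was 6 with a weight per library and 6 with only the days compared, and 1 to 4 with a library left out. At D3 against D2 it was 1 in the TPM table, 5 with weights and 5 with only the days compared, and 0 to 1 with a library left out. At D10 against D9 it was 1 with weights. At D11 against D10 it was 1 under quantile normalization, 1 with only the days compared and 1 without replicates 1 and 3 of D11, and 1 to 4 with a library left out. At D12 against D11 it was 2 under quantile normalization, 2 in the TPM table and 2 with only the days compared, and 2 to 5 with a library left out. For the sum of the first days of each phase it was 1 in the TPM table, 6 with weights and 6 without the farthest library of D10 and of D12, and 2 to 5 with a library left out. The cause was not tested. Under these alternatives, the share of all genes called was worked out only for the comparisons between D0, D9 and D18. Settings that leave out all D10 to D12 libraries, the farthest ones or replicates 1 and 3 of D11 were chosen after seeing the data.

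Replicate numbers did not pair the libraries: same-numbered libraries had correlations of deviations from -0.058 to 0.162 (D9 and D0), -0.156 to 0.145 (D18 and D9) and -0.085 to 0.251 (D18 and D0), and 1 of 4 correlated best with its own number in each. With the replicate block, in which the D1 library without a number was left out, 8877, 8221 and 6450 genes were called in the 3 main comparisons; of the 6 genes, Jup at D11 against D10 was lost (adjusted p = 0.051). A paired test of ratios by sign flips could not pass the threshold with 4 pairs and was not run. The ratio counts (12, 13 and 14 of 15) were the same under the other pseudocounts and in the TPM table. This was close to fixed in advance and is no further check. TPM differs from CPM by a factor per library and by gene length, and the pseudocounts are small beside these levels. Depth was no limit for the 6 genes, each with 3761 or more reads per library.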

Other observations

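Cadherin genes outside the disc also changed. Of 5 tested, 3 were higher and 2 lower at D9 than at D0, with the same counts in the TPM table and under quantile normalization. Of all genes, 34.4% were called higher and 37% lower, and with 5 genes the counts alone say little. Cdh3, which encodes P-cadherin, went from 198 ± 5.44 CPM (SD, n = 4) at D0 to 18.8 ± 0.68 at D9 and 27.8 ± 2.56 at D18 (log2 -3.36 at D9 against D0, SE 0.26, limma adjusted p = 1.6e-13). Cdh13, which encodes T-cadherin, rose from 201 ± 4.79 CPM at D0 to 457 ± 55.7 at D9 and fell to 73.1 ± 5.96 at D18 (log2 -2.63 at D18 against D9, SE 0.07, limma adjusted p = 2.4e-25). Cdh6 rose from 0.23 ± 0.10 CPM at D0 to 10.5 ± 0.69 at D18. These genes were picked after their values were seen.

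Of 12 Hippo and YAP genes, 3 were higher and 8 lower at D9 than at D0, where 34.4% of all genes were called higher and 37% lower. Yap1 (log2 0.42, SE 0.07) and Wwtr1 (log2 0.77, SE 0.09) were among the higher, and Axl (log2 -3.25, SE 0.32) and Ctgf (log2 -1.22, SE 0.35) among the lower. By TPM, 11 Hippo and YAP genes were tested, with 2 higher, 7 lower and 2 not called. Of 5 beta-catenin target and regulator genes, 2 were higher, 2 lower and 1 not called, which is near those shares of all genes.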
